A study of Mus musculus with 4 samples.

Results

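Glycolysis turns glucose into pyruvate, and pyruvate is then either reduced to lactate or sent into mitochondria. The genes described here encode the glucose transporters, the glycolytic enzymes, lactate dehydrogenase and the lactate transporters, the PFKFB enzymes and the pyruvate dehydrogenase gate. They were taken as the rows of the FPKM table whose symbol was on a list of 37 symbols. The table held 36 of them among 22556 genes. The symbol Pkm was absent, and the same gene, muscle-type pyruvate kinase, was present under its older symbol Pkm2.

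RNA was sequenced from whole lungs of mouse embryos at embryonic day (E) 16.5, with 2 libraries for each of 2 genotypes. Control embryos were Shh-Cre; Stk11F/+, in which 1 allele of Stk11 is floxed and the other intact. In Shh-Stk11 embryos (Shh-Cre; Stk11F/F) both alleles are. Every embryo therefore carried the Cre driver, and no library came from lungs without it. Shh-Cre acts in endodermal progenitors, the source of the lung epithelium, whereas mesenchyme, vessels and blood keep their Stk11, so an epithelial difference is diluted in whole lung. Strain was labelled C57BL/6, while the methods of the study describe mixed backgrounds. The methods call the replicates independent biological ones, and the labels give neither sex nor litter.

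STK11 is a kinase that activates AMPK, an energy sensor of the cell, and AMPK acts on glucose metabolism at several steps. Hexokinase and phosphofructokinase make the committed early steps of glycolysis, and the PFKFB enzymes set the level of fructose 2,6-bisphosphate, the strongest activator of phosphofructokinase. Pyruvate dehydrogenase kinases (PDKs) phosphorylate pyruvate dehydrogenase and so close the entry into mitochondria, and many genes of the pathway are targets of the hypoxia-inducible factors. In most families a broadly expressed isoform is accompanied by forms typical of muscle, liver, brain or heart.

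The targeted gene served as a check of the labels. Stk11 was at 44.0 and 45.5 FPKM in the Control libraries and at 29.5 and 25.95 FPKM in the Shh-Stk11 libraries. Its groups did not overlap, and it fell by 0.69 on the log2(FPKM + 0.1) scale (SE 0.13, limma adjusted p = 0.0499). Leaving out any 1 of the 4 libraries raised the adjusted p to between 0.113 and 0.183. In whole lung, fewer cells of a type and less RNA per cell cannot be told apart.

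Among 13770 genes tested, 313 (2.27%) passed an adjusted p of 0.05, 135 (0.98%) higher and 178 (1.29%) lower in Shh-Stk11 lungs. The values corresponded to between 30.8 M and 38.0 M reads per library, and between 13623 and 13709 genes per library reached 0.5 FPKM. All 7 lung epithelium markers were expressed above the filter of a mean of 0.5 FPKM. The Y-linked genes Ddx3y, Eif2s3y, Kdm5d and Uty were at 0.0405 FPKM or less in 3 libraries and reached 7.91 to 38.0 FPKM in Shh-Stk11 2, and Xist was at 0.239 FPKM in Shh-Stk11 2 and between 65.1 and 169 FPKM in the others. Shh-Stk11 2 thus held RNA of male lung and the other libraries did not.

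Of the 36 genes, 34 passed the filter and 1 passed the threshold, Pgam2, which was lower in Shh-Stk11 lungs. The share of all tested genes that passed in that direction was 1.29%, so 1 of 34 lay near the background. The median log2 fold change of the 34 genes was -0.10, beside -0.05 for all genes tested, with 11 values above and 23 below 0. The groups did not overlap in 11 genes (32.4%), beside 46.8% of all genes, and 3 genes (Pgam2, Pfkfb2 and Hk2, 8.82%) had an unadjusted p below 0.05, beside 15.2%. Both shares were below those of all genes.

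In 27 of the 34 genes the log2 fold change was smaller than 0.25 in size, beside 9121 of all 13770 genes. In 32, beside 11606 of all genes, the 95% confidence interval stayed within a change of 1 on the log2 scale in either direction. The median width of an interval to either side of its estimate was 0.42. The genotype difference was smaller than that between the Control libraries in 18 of the 34 genes, smaller than that between the Shh-Stk11 libraries in 23, and smaller than at least 1 of these in 27.

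**Figure D1:**
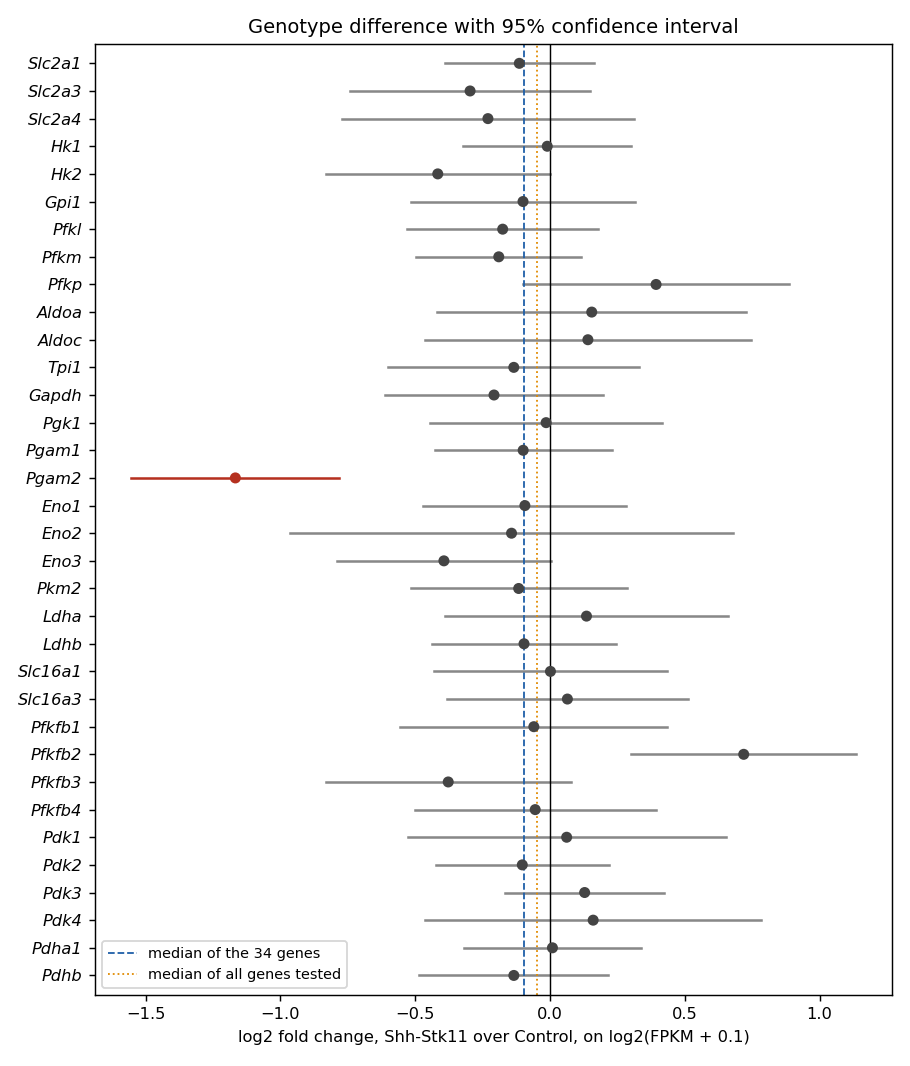
Log2 fold change, Shh-Stk11 over Control, of the 34 genes tested (points) with the 95% confidence interval from limma (lines), on the log2(FPKM + 0.1) scale. Pgam2, in red, is the gene past the threshold at -1.17, and the intervals of Pfkfb2 and Hk2 also leave out 0 before adjustment; the dashed line marks the median of the 34 genes at -0.10 and the dotted line that of all genes at -0.05.

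The pathway was expressed over a wide range, from Ldha at 674 FPKM on average over the 4 libraries to Pklr at 0.0941 FPKM. FPKM values are scaled to transcript length, so levels of different genes can be set side by side. Ldha was followed by Aldoa at 428, Gapdh at 398, Pkm2 at 330 and Tpi1 at 290 FPKM. The SDs of Aldoa (89.9 FPKM, n = 4) and Gapdh (46.5 FPKM, n = 4) exceeded the gap between them. Pdha1 at 117, Gpi1 at 103, Pdhb at 92.1 and Pgk1 at 90.9 FPKM came next. The SDs of Pdhb (9.67 FPKM, n = 4) and Pgk1 (12.3 FPKM, n = 4) exceeded the gap between them. Together the 36 genes summed to 2980 and 2969 FPKM in the Control libraries and to 2570 and 3363 FPKM in the Shh-Stk11 libraries, with the Control sums between the Shh-Stk11 sums. As a share of all FPKM in the library they made up 0.514 and 0.473% in Control and 0.499 and 0.592% in Shh-Stk11 lungs, where Shh-Stk11 1 lay between the Controls.

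**Figure D2:**
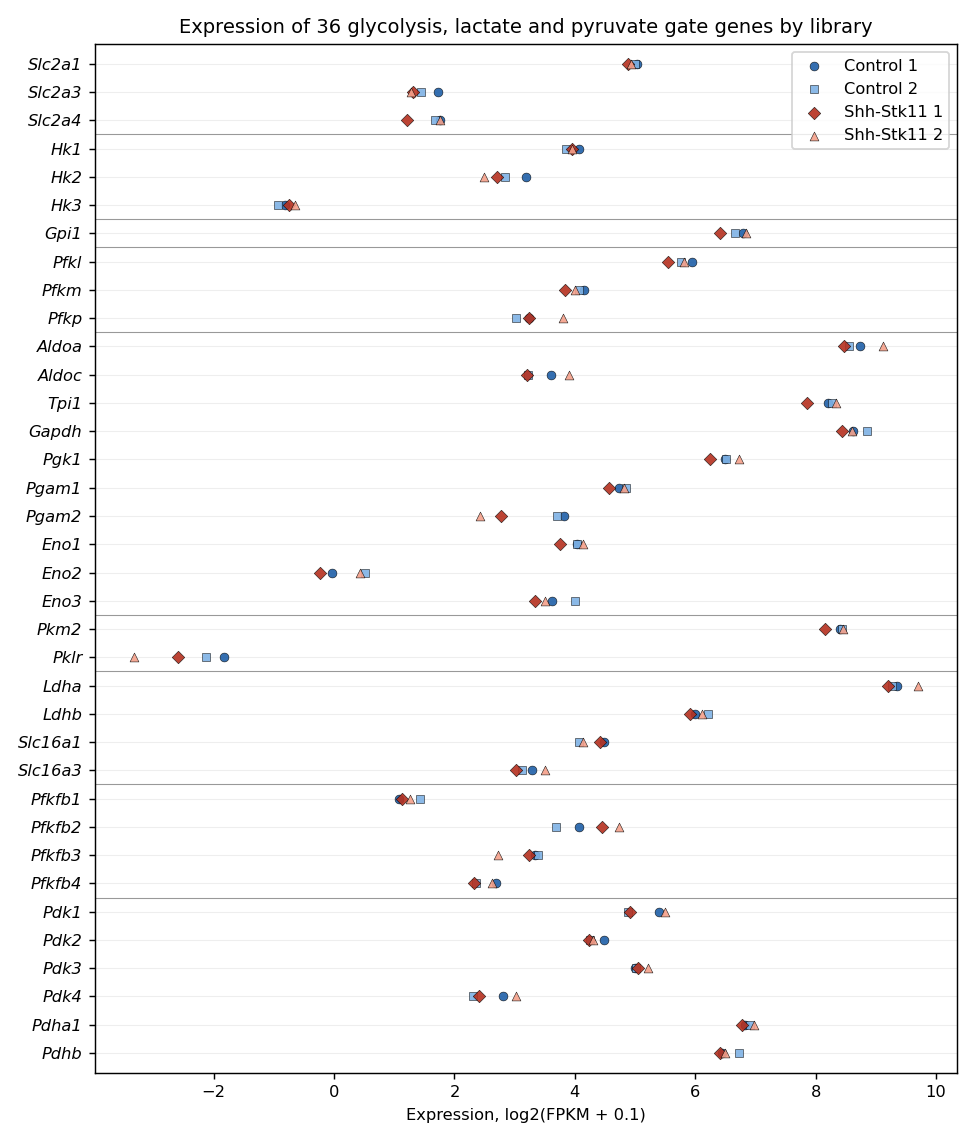
Expression of the 36 genes in each library, as log2(FPKM + 0.1), ordered by step of the pathway from glucose uptake at the top to the pyruvate gate at the bottom. Pgam2 is the gene whose Control and Shh-Stk11 points stand furthest apart among those tested, and the dark red diamonds of Shh-Stk11 1 lie leftmost in 13 of the 17 genes tested from hexokinase to pyruvate kinase.

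Glucose enters cells through the GLUT transporters. Slc2a1 (GLUT1), the basal transporter, was at 32.8 and 31.9 FPKM in Control and 29.3 and 30.5 FPKM in Shh-Stk11 lungs. Its log2 fold change of -0.11 had a 95% confidence interval of -0.39 to 0.16. Slc2a3 (GLUT3), best known from neurons, was at 3.21 and 2.62 against 2.37 and 2.31 FPKM (adjusted p = 0.514), and Slc2a4 (GLUT4), the insulin-responsive form of muscle and fat, was at 3.27 and 3.10 against 2.203 and 3.30 FPKM (adjusted p = 0.684). Slc2a1 made up 84.2% ± 0.915 (SD, n = 2) of the summed FPKM of these transporters in Control and 85.5% ± 1.44 (SD, n = 2) in Shh-Stk11 lungs, and these shares overlapped.

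Hexokinases trap glucose in the cell as glucose 6-phosphate. Hk1, the broadly expressed form, was at 16.7 and 14.4 FPKM in Control and at 15.4 FPKM in both Shh-Stk11 libraries. Hk2, the regulated form of muscle and of growing cells, was at 9.05 and 7.05 FPKM in Control and at 6.44 and 5.52 FPKM in Shh-Stk11 lungs. The Hk2 groups did not overlap, but the gene did not pass the test (log2 fold change -0.42, SE 0.17, limma adjusted p = 0.328), and the log2 fold change was -0.24 without Control 1. Hk3, a form of blood cells, lay between 0.423 and 0.539 FPKM, under the filter, and was not tested. Hk2 made up 34.6 and 32.2% of hexokinase FPKM in Control and 28.9 and 25.7% in Shh-Stk11 lungs, and Hk1 63.6 and 65.9% against 68.9 and 71.8%. The shares were separated by genotype and were not tested. Since both genes make up nearly the whole sum, a lower share of one fixes a higher share of the other.

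Phosphoglucose isomerase (Gpi1) and phosphofructokinase (Pfkl, Pfkm, Pfkp) carry the next steps. Gpi1 was at 111 and 102 FPKM in Control and at 85.5 and 115 FPKM in Shh-Stk11 lungs. Pfkl, the liver-type subunit, was the main form with 61.5 and 54.1 against 46.5 and 56.1 FPKM. The muscle-type Pfkm was at 17.7 and 16.6 against 14.2 and 15.9 FPKM. Neither subunit passed the test (adjusted p = 0.629 for Pfkl and 0.541 for Pfkm).

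Pfkp, the platelet-type subunit, stood on the other side. It was at 9.36 and 7.99 FPKM in Control and at 9.39 and 13.8 FPKM in Shh-Stk11 lungs, so Shh-Stk11 1 was level with Control 1 and the mean difference rested on Shh-Stk11 2 (difference 0.39 on the log2 scale, adjusted p = 0.438). As a share of phosphofructokinase FPKM, Pfkp was at 10.6 and 10.1% in Control and at 13.4 and 16.1% in Shh-Stk11 lungs, while Pfkl went from 69.4 and 68.7% to 66.3 and 65.4%. Both shares were separated by genotype, but in unlike ways in the Shh-Stk11 libraries. In Shh-Stk11 1 Pfkl was below both Controls while Pfkp was level with Control 1. In Shh-Stk11 2 Pfkl lay between the Controls while Pfkp was above both.

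In lower glycolysis, from aldolase to enolase, 9 of the 10 genes tested did not pass. Aldoa, the main aldolase, was at 426 and 375 FPKM in Control and at 356 and 555 FPKM in Shh-Stk11 lungs, with 1 Shh-Stk11 library below and the other above both Controls. Aldoc, the brain-type form, had the same order, with 12.1 and 9.25 against 9.12 and 14.9 FPKM. Tpi1 (triosephosphate isomerase; 295 and 309 against 233 and 324 FPKM) and Pgk1 (phosphoglycerate kinase; 90.6 and 90.9 against 76.1 and 106 FPKM) showed it as well. Gapdh, the enzyme often used as a reference gene, was at 393 and 461 against 349 and 389 FPKM (log2 fold change -0.21, 95% confidence interval -0.61 to 0.20).

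Phosphoglycerate mutase, which converts 3-phosphoglycerate to 2-phosphoglycerate, was the step with the gene that changed. Pgam2, the muscle-type form, was at 14.0 and 12.9 FPKM in Control and at 6.72 and 5.25 FPKM in Shh-Stk11 lungs. Both Shh-Stk11 values lay below both Control values, and the gap between the groups was larger than the spread within them. Pgam2 fell from 13.5 ± 0.808 to 5.98 ± 1.04 FPKM (SD, n = 2), to 0.444 of the Control mean (log2 fold change -1.17, SE 0.16, 95% confidence interval -1.55 to -0.78, limma adjusted p = 0.0247). Pgam1, the broadly expressed form, was at 26.4 and 28.7 FPKM in Control and at 23.6 and 28.0 FPKM in Shh-Stk11 lungs and did not pass (log2 fold change -0.10, 95% confidence interval -0.43 to 0.23). The summed FPKM of both forms was 40.5 and 41.6 in Control and 30.3 and 33.2 in Shh-Stk11 lungs, and Pgam2 made up 34.7 and 31.0% of it in Control and 22.2 and 15.8% in Shh-Stk11 lungs.

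The call of Pgam2 rested on about 341, 260, 132 and 111 reads, in the order Control 1, Control 2, Shh-Stk11 1 and Shh-Stk11 2, as estimated from its FPKM. Its transcript shared no 50-base stretch with the transcript of another gene. The adjusted p rose to 0.170 without Control 1, to 0.149 without Control 2 and to 0.0774 without Shh-Stk11 2, the male library, where the log2 fold change was -0.99, and was 0.0274 without Shh-Stk11 1. With the trend on transcript length and GC content removed it was 0.157, at a log2 fold change of -0.92. Over 16 alternatives, 1 of them (the crossed replicate block) chosen after seeing the data, the adjusted p lay between 0.00656 and 0.280 and passed in 10, with the same direction in each.

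Markers of other cells were examined beside Pgam2. The summed FPKM of 8 heart muscle markers was 121 and 252 in Control and 150 and 60.8 in Shh-Stk11 lungs, and that of 6 skeletal muscle markers was 7.002 and 14.8 against 6.93 and 3.83. The heart sums overlapped between genotypes, with Shh-Stk11 1 above Control 1, whereas the skeletal sums were just apart. The 6 heart and 2 skeletal muscle markers tested all had log2 fold changes below 0, with medians of -0.90 and -0.81, and none passed with limma or had an unadjusted p below 0.05 (0 genes). Most of the skeletal sum was Ckm, muscle creatine kinase, at 5.04 and 12.2 against 5.63 and 1.97 FPKM, whose groups overlapped. Ckm had the library order of the heart sum, highest in Control 2 and lowest in Shh-Stk11 2. The skeletal sum is therefore no measure of skeletal muscle apart from heart muscle. The 4 skeletal markers not tested were under 0.5 FPKM in each library, and Myog was at 0 in Control 1 and Shh-Stk11 1. The 6 multiciliated cell markers summed to 72.3 and 80.6 FPKM in Control and to 26.2 and 23.8 FPKM in Shh-Stk11 lungs, and none was at 0. All 5 of those tested were lower without overlap, and 4 passed the threshold. The part of any of these cells in the Pgam2 value was not tested.

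To show what precedes the start of the genes that stood out, the 250 bases before the annotated start are printed 5′ to 3′ for Pgam2, for its family member Pgam1 and for Pfkfb2, described further on. They come from RefSeq on GRCm38.p6, at chr11:5803797-5804046 on the minus strand for Pgam2, chr19:41911621-41911870 on the plus strand for Pgam1 and chr1:130715822-130716071 on the minus strand for the first of the Pfkfb2 starts. Capitals mark matches on either strand to ACGTG, the core bound by hypoxia-inducible factors, to CANNTG, the E-box, which includes motifs of muscle regulators, and to the MEF2 motif.
Pgam2: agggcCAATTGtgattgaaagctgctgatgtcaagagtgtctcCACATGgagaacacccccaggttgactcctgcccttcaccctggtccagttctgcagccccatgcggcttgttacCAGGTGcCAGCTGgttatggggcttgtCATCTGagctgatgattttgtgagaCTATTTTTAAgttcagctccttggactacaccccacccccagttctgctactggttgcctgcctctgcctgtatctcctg
Pgam1: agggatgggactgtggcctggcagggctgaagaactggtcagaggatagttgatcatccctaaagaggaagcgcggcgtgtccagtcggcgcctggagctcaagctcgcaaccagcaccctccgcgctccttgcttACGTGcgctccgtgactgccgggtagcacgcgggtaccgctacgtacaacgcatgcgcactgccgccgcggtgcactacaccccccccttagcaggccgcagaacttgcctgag
Pfkfb2: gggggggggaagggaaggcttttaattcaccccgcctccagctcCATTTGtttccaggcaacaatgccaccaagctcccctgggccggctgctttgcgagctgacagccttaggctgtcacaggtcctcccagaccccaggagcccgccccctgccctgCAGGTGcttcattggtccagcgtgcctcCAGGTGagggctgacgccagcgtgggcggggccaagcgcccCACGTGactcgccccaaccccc

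The Pgam2 stretch held 5 CANNTG matches, 1 MEF2 match that began 80 bases before the start and no ACGTG, whereas that of Pgam1 held 1 ACGTG and neither of the others. The Pfkfb2 stretch held 4 CANNTG matches, and 1 of these, CACGTG, contains ACGTG on both strands. Of the 2 other Pfkfb2 starts in RefSeq, one had no match and the other had 2 CANNTG and 1 ACGTG. Over all 32851 RefSeq promoters of this length, 66.2% held CANNTG, 16.6% ACGTG and 2.92% the MEF2 motif. Over the 51 promoters of the 32 tested genes with an entry, the shares were 64.7%, 37.3% and 3.92%, and 15 of the 32 genes had an ACGTG. A match is a string of letters and shows no binding.

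**Figure D3:**
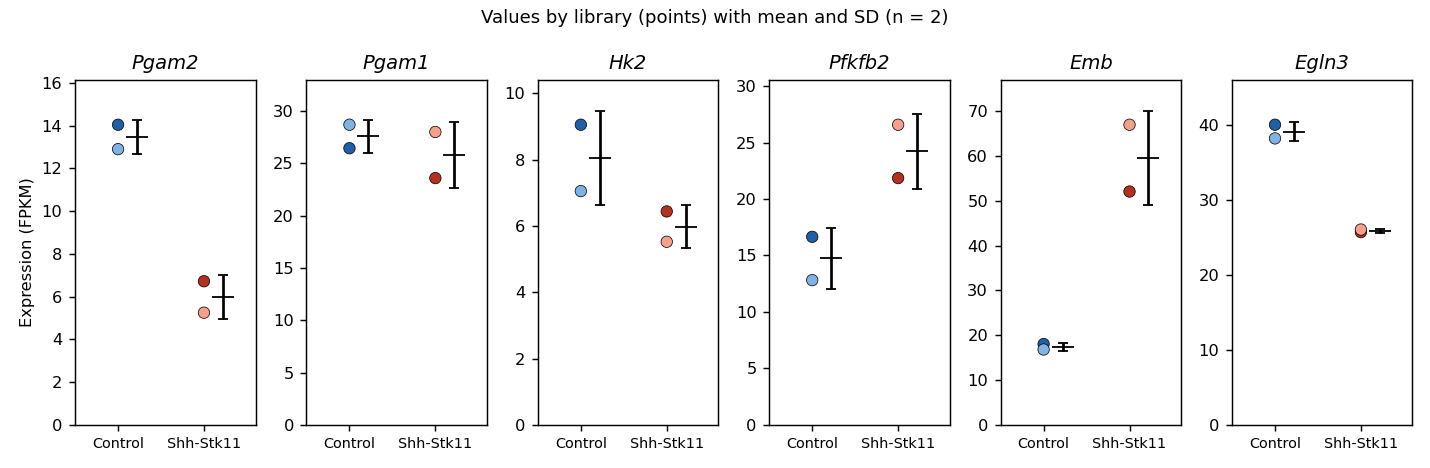
Expression in FPKM by library (points) with the mean and SD of each genotype (n = 2) for Pgam2, Pgam1, Hk2, Pfkfb2, Emb and Egln3, each on an axis from 0. The groups of Pgam1 overlap and those of the other 5 genes do not; Pgam2 and Emb are the genes of the 6 that passed the threshold.

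Enolase makes phosphoenolpyruvate. Eno3, the muscle-type enolase, was at 12.2 and 15.9 FPKM in Control and at 10.0002 and 11.3 FPKM in Shh-Stk11 lungs, without overlap, and did not pass (log2 fold change -0.39, SE 0.16, adjusted p = 0.333). It was -0.21 without Control 2, and -0.22 once trends on length and GC content were taken out. Eno2, the neuronal form, was between 0.748 and 1.33 FPKM, and the groups overlapped. Eno1, the broadly expressed form, was at 16.2 and 16.3 against 13.3 and 17.4 FPKM.

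The level of Eno1 is uncertain. Of the 50-base stretches of its transcript, 72.2% also occurred in transcripts of other genes, above all Eno1b, which the table carries as Gm5506 and which was looked up after these values were seen. Gm5506 was at 162 and 202 FPKM in Control and at 165 and 219 FPKM in Shh-Stk11 lungs, far above Eno1 itself, so reads may have been split between the copies. The sum of both was 178 and 219 against 179 and 236 FPKM and overlapped between genotypes. Copies or overlapping transcript models also shared 68.0% of Pgk1, 41.5% of Pgam1, 34.4% of Pkm2, 27.2% of Gapdh, 27.0% of Ldhb and 26.1% of Pfkfb2, whereas 26 of the 36 genes shared under 10%.

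Pyruvate kinase ends glycolysis. Pkm2, which here stands for the whole muscle-type gene and not for its M2 isoform, was at 338 and 347 FPKM in Control and at 285 and 351 FPKM in Shh-Stk11 lungs (difference -0.12 on the log2 scale, 95% confidence interval -0.52 to 0.28). Pklr, the form of liver and red blood cells, was at 0.182 and 0.129 FPKM in Control, at 0.0659 FPKM in Shh-Stk11 1 and listed at 0 in Shh-Stk11 2. It was under the filter and not tested, and its values corresponded to about 18.6, 10.96, 5.48 and 0 reads, where 3 reads would be at most 0.0361 FPKM.

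Lactate dehydrogenase interconverts pyruvate and lactate. Ldha, the form that favours lactate, was at 655 and 620 FPKM in Control and at 587 and 835 FPKM in Shh-Stk11 lungs. Ldhb was at 64.1 and 74.4 against 60.3 and 69.3 FPKM. Ldha had the order seen in Aldoa, with Shh-Stk11 1 lowest and Shh-Stk11 2 highest, and made up 90.2% ± 1.27 (SD, n = 2) of lactate dehydrogenase FPKM in Control and 91.5% ± 1.17 (SD, n = 2) in Shh-Stk11 lungs.

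Lactate leaves and enters cells through monocarboxylate transporters. Slc16a1 (MCT1) was at 22.3 and 16.8 FPKM in Control and at 21.4 and 17.5 FPKM in Shh-Stk11 lungs, with both Shh-Stk11 values inside the Control range. Slc16a3 (MCT4), the form of cells that export lactate, was at 9.64 and 8.57 against 8.05 and 11.2 FPKM. The 95% confidence intervals of their log2 fold changes were -0.43 to 0.43 for Slc16a1 and -0.38 to 0.51 for Slc16a3.

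The PFKFB enzymes both make and break down fructose 2,6-bisphosphate. Pfkfb2, the heart-type form, was at 16.6 and 12.8 FPKM in Control and at 21.9 and 26.6 FPKM in Shh-Stk11 lungs. Both Shh-Stk11 values lay above both Control values, at 1.64 times the Control mean, but the gene did not pass the test (log2 fold change 0.72, SE 0.17, 95% confidence interval 0.30 to 1.14, limma adjusted p = 0.102). Its adjusted p lay between 0.0511 and 0.421 over 15 alternatives, passing in 0 of them, and was 0.0274 with the crossed replicate block, chosen after seeing the data. Pfkfb3, the inducible form that mainly makes fructose 2,6-bisphosphate, was at 9.997 and 10.4 FPKM in Control and at 9.37 and 6.53 FPKM in Shh-Stk11 lungs, lowest in Shh-Stk11 2 (log2 fold change -0.38, adjusted p = 0.418; -0.12 without that library and -0.63 without Shh-Stk11 1). Pfkfb1, the liver-type form, lay between 2.01 and 2.59 FPKM and Pfkfb4 between 4.88 and 6.39 FPKM, and both overlapped.

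Within the PFKFB family the shares differed more than the sum. Pfkfb2 made up 47.5 and 41.6% of the summed FPKM in Control and 57.2 and 64.1% in Shh-Stk11 lungs. Pfkfb3 made up 28.5 and 33.7% against 24.5 and 15.7%. The sum was 35.0 and 30.8 FPKM in Control and 38.2 and 41.5 FPKM in Shh-Stk11 lungs. None of these quantities overlapped between the genotypes. They were not tested, and the smallest two-sided p that exact permutation allows at this size is 0.333.

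**Figure D4:**
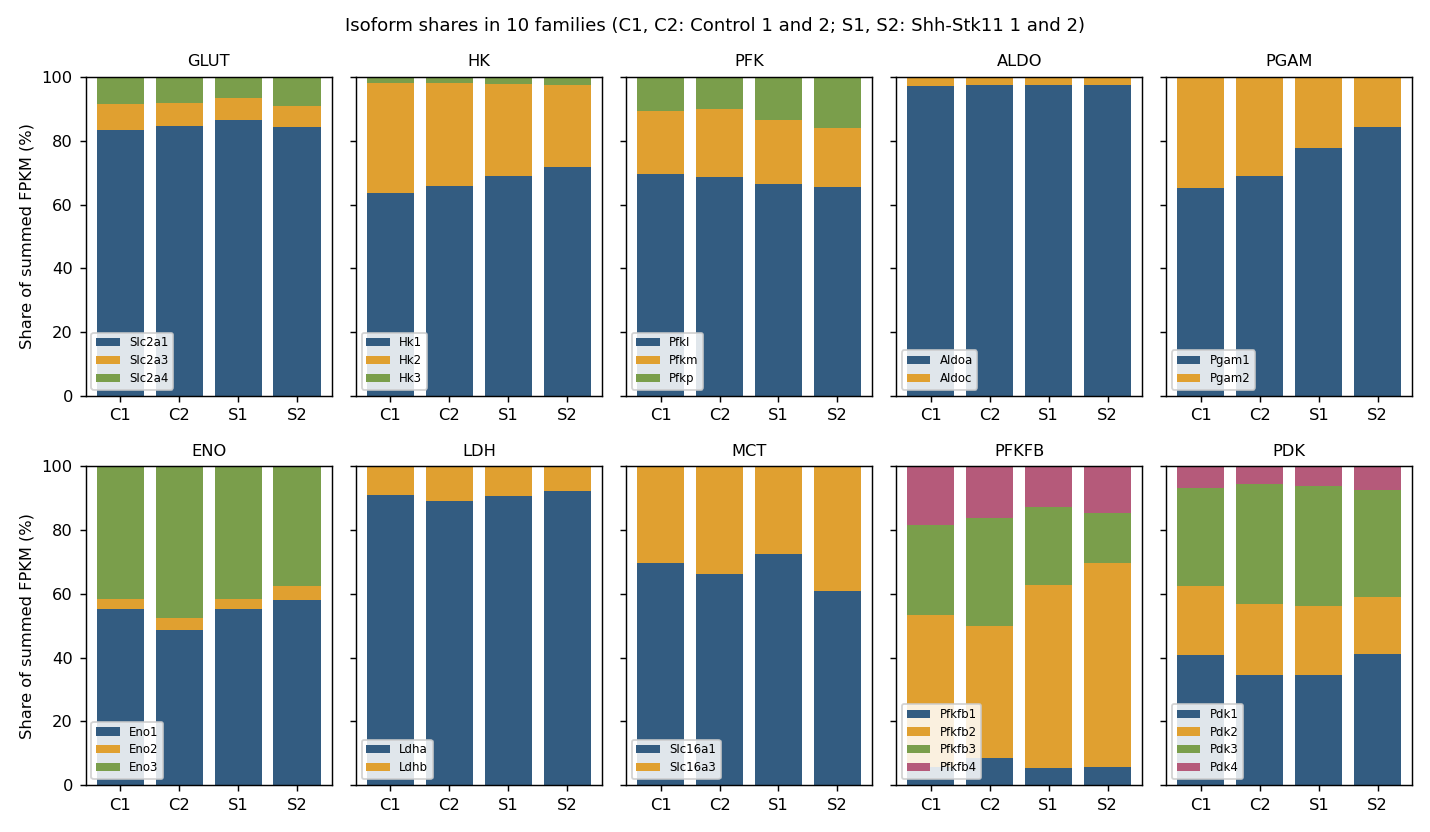
Share of each isoform in the summed FPKM of its family (percent, stacked to 100) in Control 1 and 2 (C1, C2) and Shh-Stk11 1 and 2 (S1, S2) for 10 families. The share of Pgam2 goes from 34.7 and 31.0% in Control to 22.2 and 15.8% in Shh-Stk11 lungs and that of Pfkfb2 from 47.5 and 41.6% to 57.2 and 64.1%, while the ALDO and LDH shares overlap. The ENO shares leave out Gm5506, the copy of Eno1.

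At the pyruvate gate, none of the 6 genes passed the test. Pdk1, a kinase known as a hypoxia target, was at 42.3 and 29.5 FPKM in Control and at 30.1 and 45.2 FPKM in Shh-Stk11 lungs, so that its libraries differed more within than between genotypes. Pdk4, which responds to fasting and fatty acids, behaved alike in its order, with 6.93 and 4.83 against 5.20 and 8.06 FPKM. The log2 differences between the libraries of 1 genotype were 0.59 (Pdk1) and 0.62 (Pdk4) in Shh-Stk11 and -0.52 and -0.51 in Control lungs, beside genotype differences of 0.06 and 0.16.

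The other kinases varied less. Pdk2 was at 22.4 and 19.0 against 18.7 and 19.7 FPKM. Pdk3 was at 31.7 and 32.2 in Control and at 33.0 and 37.0 FPKM in Shh-Stk11 lungs, without overlap, but with a log2 fold change of 0.13 (95% confidence interval -0.17 to 0.42). The pyruvate dehydrogenase subunits themselves, Pdha1 (114 and 120 against 110 and 126 FPKM) and Pdhb (86.9 and 106 against 85.3 and 89.9 FPKM), had intervals of -0.32 to 0.34 and -0.48 to 0.22. Pdk1 and Pdk3 were the main kinases, at 37.7% and 34.2% of the summed PDK FPKM in Control and 37.8% and 35.8% in Shh-Stk11 lungs.

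The 2 Shh-Stk11 libraries lay apart from each other across these genes. Shh-Stk11 1 was the lowest of the 4 libraries in 22 of the 34 genes (64.7%, beside 33.8% of all genes) and the highest in 0 (21.8% of all genes). Shh-Stk11 2 was the highest in 16 (47.1%, beside 19.4%). Shh-Stk11 2 was above Shh-Stk11 1 in 29 of 34 genes (85.3%, beside 53.5%), by a median of 0.26 on the log2 scale, where the median over all genes was 0.02. Against the Control mean, the median was -0.21 in Shh-Stk11 1 and 0.04 in Shh-Stk11 2, beside -0.06 and -0.03 for all genes, so the median of -0.10 given above lies between 2 unlike libraries. From hexokinase to pyruvate kinase (17 genes tested), the median in Shh-Stk11 1 was -0.28 and in Shh-Stk11 2 it was 0.04. The order was also seen, less strongly, in the 55 further genes of the pathway that were tested and are described below. Of these, 39 (70.9%) were higher in Shh-Stk11 2 than in Shh-Stk11 1, with a median difference of 0.11 on the log2 scale. Shh-Stk11 1 was the lowest library in 24 of them (43.6%).

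These libraries also differed in other measures. Shh-Stk11 2 was male, and 4 of the genes are X-linked (Pgk1, Pdha1, Pdk3 and Pfkfb1). All 4 were higher in Shh-Stk11 2 than in Shh-Stk11 1, but so were 29 of all 34 genes. Of the 468 X-linked genes tested, 49.4% were higher in Shh-Stk11 2. Summed immune markers were at 235 FPKM in Shh-Stk11 1 and at 452 FPKM in Shh-Stk11 2, outside the Control values of 399 and 353 FPKM on either side. Lyz2 carried most of this sum (174 and 352 FPKM in Shh-Stk11 1 and 2), so the sum mostly follows Lyz2. Ptprc, Cd68 and S100a8 were also higher in Shh-Stk11 2 than in Shh-Stk11 1, whereas Csf1r was level at 9.14 and 9.11 FPKM. Mpo was near the floor, at 0.0138 and 0.0514 FPKM, or about 1.09 and 4.34 reads. Summed lung epithelium markers were at 9106 and 13203 FPKM in Shh-Stk11 1 and 2 and at 18354 and 16623 FPKM in Control lungs. Nearly all of that sum was Sftpc, a surfactant protein gene, at 8005 and 12048 against 17425 and 15784 FPKM. Of the 7 epithelium markers 5 had a log2 fold change above 0 and 2 below, with a median of 0.21, and 0 passed with limma, 2 having an unadjusted p below 0.05. Summed red blood cell markers were at 3744 and 4106 against 5594 and 5809 FPKM, with log2 fold changes below 0 in all 7, and 1 passed, the embryonic globin gene Hba-x (-1.49, limma adjusted p = 0.0158). Summed endothelial markers were at 353 and 375 against 517 and 430 FPKM, and mesenchymal ones at 924 and 849 against 969 and 955 FPKM. The part of sex, litter or cell make-up in the order of the libraries was not tested.

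**Figure D5:**
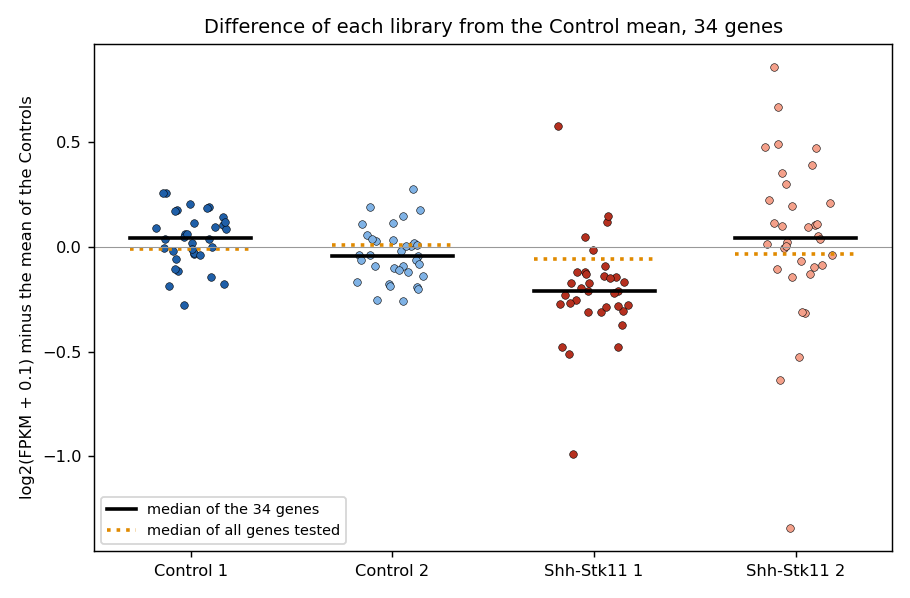
Difference of each library from the mean of the Control libraries, as log2(FPKM + 0.1), for the 34 genes (points, spread sideways for legibility); solid lines mark the median of the 34 genes and dotted lines that of all genes tested. Shh-Stk11 1 lies at a median of -0.21 and Shh-Stk11 2 at 0.04, and the lowest point in each is Pgam2.

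Further genes of the pathway were described by a list of 68 genes, of which all 68 were in the table and 55 were tested. Their median log2 fold change was -0.06, and 1 passed the threshold, a higher one, where 0.98% of all genes passed in that direction. Emb (embigin), a membrane partner of monocarboxylate transporters, was at 18.02 and 16.8 FPKM in Control and at 52.0 and 66.9 FPKM in Shh-Stk11 lungs. The Shh-Stk11 libraries were both far above the Controls, and Emb rose by 1.76 on the log2 scale (SE 0.15, 95% confidence interval 1.39 to 2.13, limma adjusted p = 0.00498). Without Control 1 the adjusted p was 0.058, without Control 2 it was 0.0724 and without the male library Shh-Stk11 2 it was 0.0150, and over 16 alternatives it lay between 0.000659 and 0.222. The transporters that Emb accompanies did not pass, and neither did Bsg (basigin), its relative and the other partner, at 856 and 842 against 698 and 937 FPKM.

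No other gene of the list passed. None was called among 12 further hexose transporters and glycolytic genes tested, 9 of pyruvate entry (the mitochondrial pyruvate carrier, further pyruvate dehydrogenase complex subunits and phosphatases, and pyruvate carboxylase), 7 of the pentose phosphate pathway, 15 of glycogen metabolism and 7 of the glycerol phosphate and malate shuttles. Outside the list, Fbp1 and Fbp2, which encode fructose 1,6-bisphosphatase, the enzyme opposing phosphofructokinase in gluconeogenesis, were at 0.642 and 0.516 against 13.8 and 13.7 FPKM (Fbp1, limma adjusted p = 0.000559) and at 0.531 and 0.902 against 23.0 and 14.2 FPKM (Fbp2, adjusted p = 0.00329).

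Hypoxia-response genes were examined because many glycolytic genes belong to them. Of 28 genes, 27 were tested and 0 passed the threshold with limma, beside 2.27% of all genes, and 1 (3.70%) had an unadjusted p below 0.05, beside 15.2%. With robust variance moderation 1 passed, where 587 of all 13770 genes did. Their median log2 fold change was -0.06, with 8 values above and 19 below 0, beside 5737 above and 8033 below over all genes. That 1 gene was Egln3, a prolyl hydroxylase that marks HIF for degradation and is itself a HIF target, at 40.1 and 38.3 FPKM in Control and at 25.7 and 26.1 FPKM in Shh-Stk11 lungs. Its groups did not overlap (log2 fold change -0.59, SE 0.12, limma adjusted p = 0.0592), and the adjusted p lay between 0.0335 and 0.245 over 16 alternatives. The lowest log2 fold change of the list was that of Car12, a carbonic anhydrase, at 1.59 and 0.577 against 0.766 and 0.0942 FPKM (-1.38, adjusted p = 0.467).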

How the data were processed

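RNA from 2 Control and 2 Shh-Stk11 lungs at E16.5 was sequenced on a HiSeq instrument, with single reads of 50 bases. The authors deposited FPKM values, and the submitters' processing notes name TopHat2 2.0.13, Cufflinks 2.2.1, GRCm38 and mm9 without roles. R 4.3.3 and limma 3.58.1 (linear model with genotype, eBayes with trend) were run on log2(FPKM + 0.1), a scale that understates changes of low genes, for the 13770 genes whose mean reached 0.5 FPKM, with two-sided tests and Benjamini-Hochberg adjustment. Reads were estimated from the FPKM steps of low genes (76.2% of 1721 were whole multiples, tolerance 0.02) and cover counting error only. Shared 50-base stretches were searched in GENCODE M21 transcripts. RefSeq promoters were matched for 34 of the 36 genes.

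Members and lists were chosen with earlier results of these data known. The text names every member, Stk11, genes past the threshold and extremes of the other 2 lists (some are not reported here), Fbp1, Fbp2 and sex-linked genes; any other gene was chosen after its values were seen. Alternatives were pseudocounts of 1 and 0.01, filters of 0.1 and 5 FPKM or none, quantile and median-ratio scaling, eBayes without trend or robust, a replicate block, removal of length and GC trends, and leaving out each library. The test was checked on simulated data.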

Additional observations from a re-analysis of the deposited data

How the results depend on the processing

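The main limit is 2 libraries per genotype. Settings were changed 1 at a time, in 15 alternatives and in 1, the crossed replicate block, chosen after seeing the data; where a library was left out, its group's lone library was assumed to vary like the other group. Unless said otherwise the cause of a change was not tested. The number of the 34 genes past the threshold, 1 in the main analysis, was 0 once length and GC trends were removed, without a filter on low values and with the replicate block, and lay between 0 and 1 when a library was left out. Pfkfb2, with the crossed block alone, and Pgam2 were the only genes of the 34 called in any of the 16 alternatives; Eno2, Pfkfb1, Slc2a3 and Slc2a4 had a value in 15. Emb, the 1 further pathway gene called, was lost without a filter and with the replicate block (0 genes), and 0 to 1 genes passed when a library was left out. Of the hypoxia-response genes 1 passed with robust moderation. Over all genes, 313 calls became 1 without a filter, 13 with the replicate block, 198 with the length and GC trend removed, 200 at a mean of at least 5 FPKM, 587 with robust moderation and 38 to 191 with a library left out.

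The replicate numbers of the 2 genotypes were shared, but the deviations of same-numbered libraries from their group means correlated at -0.114, and nothing in the labels ties them. With the replicate block the adjusted p was 0.0982 for Pgam2, 0.0608 for Emb and 0.0505 for Fbp2. With the pairing crossed, 675 genes passed, 2 of them among the 34 genes.

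Stk11 kept its direction throughout and missed the threshold at a log2 fold change of -0.69 without the variance trend, at a filter of 0.1 FPKM, without a filter and with the replicate block, at -0.57 with the length and GC trend removed, -0.65 with median-ratio scaling, -0.67 with a pseudocount of 1 and -0.62 with quantile normalization, and lay between -0.78 and -0.60 when a library was left out.

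The median log2 fold change of the 34 genes lay at 0.043 when Shh-Stk11 1 was left out and at -0.21 when Shh-Stk11 2 was, and removing the length and GC trend gave 0.034. No called gene turned its sign. With the length and GC trend removed, the log2 fold change turned to 0.064 for Eno1, 0.00051 for Gpi1, 0.072 for Hk1, 0.087 for Ldhb, 0.048 for Pdk2, 0.0086 for Pfkfb1, 0.048 for Pfkfb4, 0.058 for Pgam1, 0.13 for Pgk1, 0.033 for Pkm2, 0.035 for Tpi1 and -0.10 for Slc16a1. Quantile normalization turned Gpi1 (0.014), Hk1 (0.0101) and Pgk1 (0.088), and median-ratio scaling Hk1 (0.031) and Pgk1 (0.027). Leaving out a library turned the sign of 22 of the 34 genes, with log2 fold changes from -0.17 to 0.48 for Aldoa, -0.21 to 0.49 for Aldoc, -0.28 to 0.096 for Eno1, -0.48 to 0.19 for Eno2, -0.31 to 0.11 for Gpi1, -0.11 to 0.093 for Hk1, -0.12 to 0.39 for Ldha, -0.20 to 0.0108 for Ldhb, -0.090 to 0.11 for Pdha1, -0.28 to 0.0112 for Pdhb, -0.23 to 0.35 for Pdk1, -0.22 to 0.0150 for Pdk2, -0.15 to 0.47 for Pdk4, -0.24 to 0.12 for Pfkfb1, -0.23 to 0.12 for Pfkfb4, -0.22 to 0.024 for Pgam1, -0.25 to 0.23 for Pgk1, -0.27 to 0.035 for Pkm2, -0.20 to 0.20 for Slc16a1, -0.17 to 0.30 for Slc16a3, -0.51 to 0.0501 for Slc2a4 and -0.37 to 0.10 for Tpi1. The signs of the other 12 genes, Pgam2, Hk2 and Pfkfb2 among them, did not turn in any alternative that gave them a value, which was 15 for Slc2a3 and 16 for the others.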
